A study of Mus musculus with 4 samples.

Results

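The islands described here are the accessible regions that lay farthest from protein-coding genes in a DNase-seq peak table of mouse lymphoid tissue inducer (LTi) cells. An island was taken as distal when its nearest edge was over 50 kb from either end of every RefSeq protein-coding gene of mm10. This held for 1266 of the 16584 islands, or 7.63%, of which 582 lay inside a gene and 684 lay between genes. The choice among the islands of the table used position alone and no read count. DNase-seq sequences the fragment ends left by the nuclease DNase I, which cuts preferentially where DNA is free of packed nucleosomes. The study compared LTi cells from Peyer's patches of C57BL/6 mice, with 2 libraries from Tcf7+/+ controls and 2 from Tcf7fl/fl mice that also carry a lineage-restricted Cre recombinase, which removes the floxed gene for TCF-1 in cells that express or once expressed the Cre. In both groups 300 cells per library were sorted as lineage-negative, CD127+, CCR6+ and negative for KLRG1, NK1.1 and NKp46, and their DNA was cut with 0.3 U of DNase I over 5 minutes. The labels do not state the age of the mice or whether cells of several mice were pooled.

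Each island of the deposited table has a peak-side count and a control-side count, and neither is tied to a genotype or a library. A fold is therefore the ratio between the sides of the table, with the control-side count multiplied by 0.345, and it is no difference between control and Tcf7-deficient cells. Folds are given with exact (Clopper-Pearson) 95% intervals, which cover counting error only, and reads that carry no molecular identifier may repeat 1 molecule. Islands of 1 table are not replicates, so no test between groups of islands is given. Every island outside mitochondrial DNA held at least 8 peak-side reads, while 11 held no control-side read. How far this lower limit on the peak side alone shapes the folds of islands with few reads was not tested. The labelled cell type was checked on marker genes. Of 11 LTi genes, 10 had an island over the gene or at most 1 kb away, among them Il7r, Kit, Id2, Tnfsf11 and Ltb, while Ccr6, on which the cells were sorted, had none. Of 13 genes of cells outside the gate, 4 had one, namely Cd79a, Epcam, Pecam1 and Pdgfrb, and Cd3e, Ncr1 and Csf1r were among those with none.

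LTi cells are innate lymphocytes that depend on Id2, and they induce lymph nodes and Peyer's patches through lymphotoxin and RANKL. Regulatory DNA of such lineage genes often lies far from the promoter, in introns of long genes or in wide gene-free intervals beside them. DNase I accessibility marks enhancers, promoters, insulators and starts of non-coding RNAs alike, and does not by itself name the gene that a region acts on.

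Some distal islands held an annotated start of transcription, and 6 of these starts are shown because the start sequences of the distal islands ranged from CpG-dense to nearly CpG-free. They were chosen after the values were seen. Each is the 300 bases from 250 before to 50 after the start in RefSeq (GRCm38.p6, the assembly that mm10 names), written 5′ to 3′ on the gene's strand. In the first 3, internal starts of Runx1, Foxp1 and Jmjd1c, capitals mark CpG dinucleotides. In the others, starts of non-coding RNAs, capitals mark 1 match to a short motif on either strand, namely CTTTGA (TCF/LEF, here as its reverse complement) in Gm36496, TGTGGT (RUNX) in Gm5122 and TGANTCA (AP-1) in Morrbid.
Runx1, chr16:92697280-92697579, minus strand: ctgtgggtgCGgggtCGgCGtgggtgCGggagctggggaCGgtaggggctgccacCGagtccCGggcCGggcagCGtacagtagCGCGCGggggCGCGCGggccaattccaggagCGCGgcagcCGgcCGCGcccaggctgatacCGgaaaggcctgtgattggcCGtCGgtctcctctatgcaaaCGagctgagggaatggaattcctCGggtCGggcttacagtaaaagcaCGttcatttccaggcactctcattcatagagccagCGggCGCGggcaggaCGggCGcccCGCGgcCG
Foxp1, chr6:99028249-99028548, minus strand: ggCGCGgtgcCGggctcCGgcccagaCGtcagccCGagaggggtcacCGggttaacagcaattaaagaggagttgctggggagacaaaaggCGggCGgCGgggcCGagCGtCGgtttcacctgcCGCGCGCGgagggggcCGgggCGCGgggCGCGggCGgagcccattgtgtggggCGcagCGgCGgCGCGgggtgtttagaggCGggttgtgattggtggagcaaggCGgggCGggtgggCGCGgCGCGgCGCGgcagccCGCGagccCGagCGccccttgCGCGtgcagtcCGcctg
Jmjd1c, chr10:67185500-67185799, plus strand: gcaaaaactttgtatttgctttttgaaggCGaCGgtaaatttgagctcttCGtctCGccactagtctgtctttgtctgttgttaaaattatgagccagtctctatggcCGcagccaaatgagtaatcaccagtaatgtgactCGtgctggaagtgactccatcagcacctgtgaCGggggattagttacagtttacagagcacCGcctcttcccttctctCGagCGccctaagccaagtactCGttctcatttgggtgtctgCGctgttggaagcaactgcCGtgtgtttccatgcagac
Gm36496, chr12:25190795-25191094, minus strand: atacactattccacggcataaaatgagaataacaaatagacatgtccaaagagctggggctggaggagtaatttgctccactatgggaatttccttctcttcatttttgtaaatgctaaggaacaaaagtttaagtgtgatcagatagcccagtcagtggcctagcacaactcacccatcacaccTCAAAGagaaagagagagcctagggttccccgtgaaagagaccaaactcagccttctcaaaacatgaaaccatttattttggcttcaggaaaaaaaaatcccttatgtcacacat
Gm5122, chr9:61016819-61017118, plus strand: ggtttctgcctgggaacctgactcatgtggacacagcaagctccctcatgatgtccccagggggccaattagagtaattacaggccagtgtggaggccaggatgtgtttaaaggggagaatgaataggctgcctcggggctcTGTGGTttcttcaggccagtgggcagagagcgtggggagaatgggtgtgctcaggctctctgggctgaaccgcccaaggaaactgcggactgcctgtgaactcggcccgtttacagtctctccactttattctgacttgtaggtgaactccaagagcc
Morrbid, chr2:128429302-128429601, minus strand: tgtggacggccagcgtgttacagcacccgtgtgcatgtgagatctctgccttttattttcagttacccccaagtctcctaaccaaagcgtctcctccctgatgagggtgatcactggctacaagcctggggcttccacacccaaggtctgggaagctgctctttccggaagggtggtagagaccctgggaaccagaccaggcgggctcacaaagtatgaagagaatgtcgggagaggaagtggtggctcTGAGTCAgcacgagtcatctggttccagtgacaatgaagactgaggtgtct

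Distal islands were small in reads. Their median distance to a gene end was 87.5 kb (interquartile range 63.7 to 134), and the farthest lay 2138 kb away. They were a median of 1800 bp wide (1200 to 2750), as wide as islands of the whole table, and 85 of them (6.71%) reached 4 kb, against 6.73% of all islands. The median distal island held 13 peak-side reads (11 to 18) and 16 control-side reads (10 to 23). Islands within 1 kb of a gene end, 9233 in number, held 23 and 37. Per kb of island the medians were 7.80 and 8.11 reads in distal islands and 12.3 and 20.0 at gene ends, so the control side differed more between these classes than the peak side. The plot of reads on both sides shows how tightly the distal islands gather at low counts and how few stand far above.

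The fold of distal islands had a median of 2.61 (interquartile range 1.93 to 3.69), with 2.66 inside genes and 2.57 between them. It was 2.28 for islands 1 to 50 kb from a gene end inside genes (n = 3452), 2.27 for those between genes (n = 2630) and 1.86 at gene ends. The level depends on the scaling of the control side, and with the factor taken from the summed reads of all islands the median was 1.37 in distal islands and 0.972 at gene ends. Of the distal islands, 1121 (88.5%) were called, which means an FDR under 0.05 in the authors' deposited table, against a background of 82.3% of all islands. The shares inside and between genes were 89.2% and 88.0%. With that other factor 23.1% of distal islands pass that FDR, as do 9.19% of all and 3.96% at gene ends. A fold under 1 was found in 22 distal islands (1.74%), against 1.67% of all islands. The median fold went from 1.85 over a gene end to 2.15 at 1 to 10 kb, 2.42 at 10 to 50 kb, 2.49 at 50 to 100 kb (756 islands), 2.72 at 100 to 200 kb (365 islands) and 2.90 at 200 to 500 kb (125 islands). Beyond 500 kb it was 2.36 in 20 islands.

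Because distal islands hold few reads, folds were also set side by side within classes of peak-side reads. At 8 to 9 reads the median fold was 2.90 in distal islands and 1.86 at gene ends, and at 16 to 20 reads it was 2.61 and 1.80. At 31 to 50 reads the order was the opposite, with 1.70 in 33 distal islands and 1.91 at gene ends, and above 50 reads it was 1.87 in 20 and 1.93. The difference in median log2 fold, distal minus gene end, was 0.49 over all islands, 0.51 when averaged over the classes, 0.20 with at least 20 peak-side reads and -0.092 with at least 30 (61 distal islands). The higher fold of distal islands was thus found among islands of few reads and not among those of many. At 10 to 12 peak-side reads the distal islands had a median of 12 control-side reads, against 18 at gene ends.

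**Figure D1:**
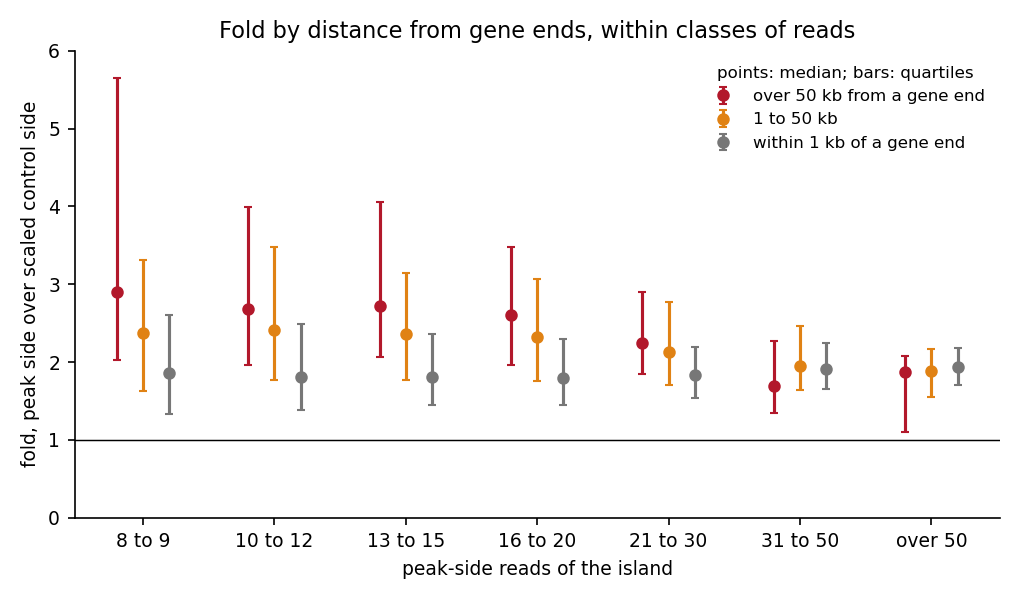
Median fold (points) and quartiles (bars) of islands over 50 kb (red), 1 to 50 kb (orange) and within 1 kb of a gene end (grey), by class of peak-side reads. The horizontal line marks a fold of 1. Distal islands lie above gene-end islands up to 30 reads and not above it.

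The 3 islands nearest to the 50 kb limit on each side are given by position, and are too few to compare the sides. The 3 distal islands nearest to it lay inside Atxn7 at 50.006 kb (26 and 53 reads, peak side first), inside Apbb1ip at 50.03 kb (20 and 12) and inside Mbp at 50.037 kb (12 and 15). The 3 islands just within it lay inside Abcb1a at 49.917 kb (11 and 12), inside Pcgf5 at 49.97 kb (27 and 55) and between Efnb1 and Pja1 at 49.979 kb (13 and 8). Their folds ran from 1.42 to 4.83 outside and from 1.42 to 4.71 within.

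Gene interiors held more distal islands per length than gene-free DNA. The parts of genes over 50 kb from every gene end came to 360 Mb and held 1.62 islands per Mb, while the gene-free DNA at that distance, measured between genes, came to 1006 Mb and held 0.665 per Mb (669 islands, leaving out 15 beyond the outermost gene of a chromosome). Of 2314 genes long enough to hold a distal island, 368 (15.9%) were hosts. A single island was found in 248 of them, 2 in 68 and 3 or more in 52, and these 52 genes held 201 islands. Gene length went against density. Genes of 100 to 150 kb held 4.82 islands per Mb of interior, those of 500 to 1000 kb held 0.871, and the 59 genes over 1000 kb held 0.168, with 12 islands in 7 hosts. Ptprd, Cntnap2, Dmd, Lrp1b, Lsamp and Dlg2, with interiors of 1873 to 2171 kb, had no distal island.

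**Figure D2:**
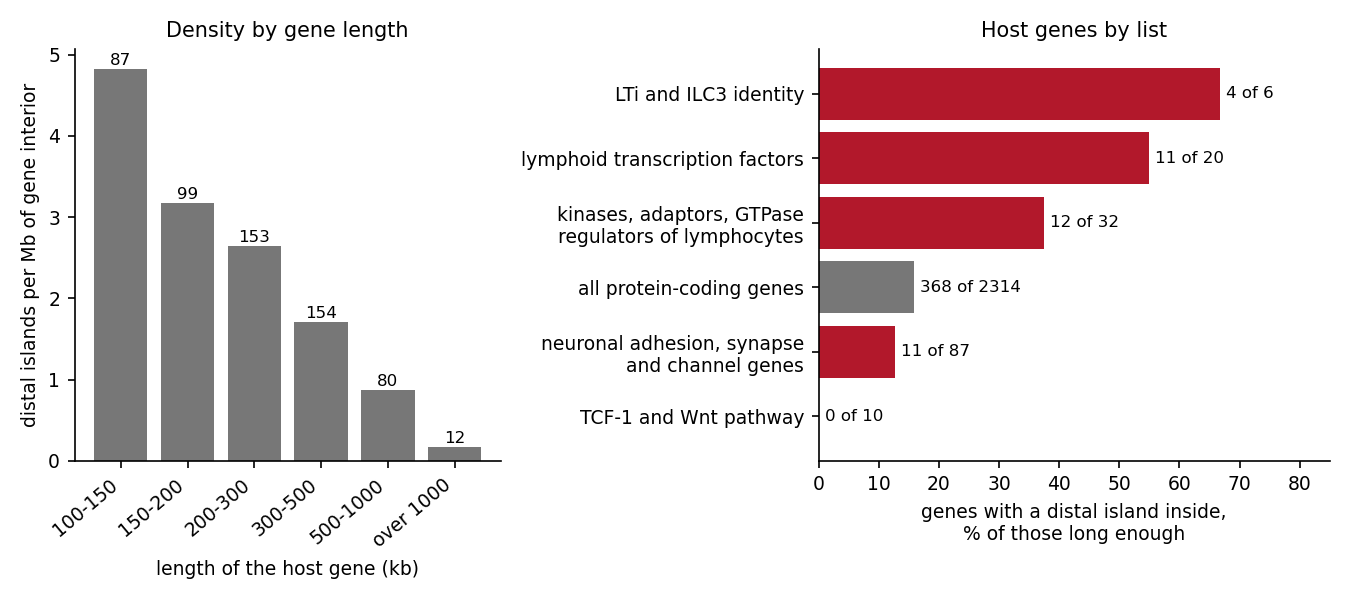
Left, distal islands per Mb of gene interior by length of the gene, with the number of islands above each bar. Right, genes with a distal island inside as a percentage of those long enough, for lists with at least 5 such genes and for all protein-coding genes (grey), with both counts beside each bar. Density falls from 4.82 to 0.168 per Mb with length, and 4 of 6 LTi identity genes, 11 of 87 neuronal genes and 15.9% of all genes long enough were hosts.

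Ppm1h, a protein phosphatase gene on chromosome 10 (122677428 to 122945795), held the most distal islands of any gene, 7. They formed 1 run of 28.4 kb (122791601 to 122820000), with 9, 13, 13, 12, 11, 9 and 14 peak-side reads and 3, 34, 16, 23, 11, 15 and 14 control-side reads in order of position. Their pooled fold was 2.03 (1.51 to 2.71), and the authors' deposited table called 5 of them, against 89.2% of all distal islands inside genes. The peak side was even along the run, and the control side varied more. Rora encodes RORa, a nuclear receptor that acts in innate lymphoid cells, and it held 6 islands, all of them called in the authors' deposited table. They had 14, 34, 26, 15, 25 and 15 peak-side and 10, 46, 29, 21, 27 and 13 control-side reads, with folds from 2.07 to 4.06 and a pooled fold of 2.56 (2.01 to 3.27). One of them lay alone at 69034001 to 69036200 on chromosome 9, and the other 5 lay between 69289401 and 69337600, toward 1 end of the gene.

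Other hosts with many islands covered several kinds of protein. Myo16, an unconventional myosin gene on chromosome 8, held 6 islands with reads of 91 and 64 (pooled fold 4.12, 2.96 to 5.77), the highest of the 12 hosts with most islands. Gse1, a chromatin-associated protein gene, held 6 with reads of 129 and 245 and the lowest pooled fold, 1.53 (1.22 to 1.90). Myo16 and Gse1 are named as the extremes of the 12, so their intervals, which cover counting error only, are not compared. Rad51b, a recombination gene, held 6 islands (pooled fold 2.69, 2.04 to 3.55), and so did Prex1, an exchange factor for the GTPase Rac (2.53, 1.90 to 3.36). The 6 islands of Prex1 lay in an interior of only 47.5 kb. Foxp1, a forkhead factor that keeps lymphocytes quiescent, held 5 islands with 86 and 120 reads and folds from 1.71 to 2.90. Each was called in the authors' deposited table, where 89.2% of all distal islands inside genes were called. Pde4d, a cAMP phosphodiesterase, Msi2, an RNA-binding protein, Cmip, Zfhx3, a homeobox factor, and 2900026A02Rik held 5 each, with pooled folds from 1.71 to 2.61.

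Between genes, 416 of 2967 gene-free intervals long enough (14.0%) held a distal island, and 16 intervals held 5 or more. The interval of 335 kb from Haao to Zfp36l2, an mRNA decay factor, held 11 islands on chromosome 17 with reads of 209 and 273 (pooled fold 2.22, 1.85 to 2.67). Its strongest in reads (83961201 to 83965800) had 41 and 57, and its highest fold, 6.77 (2.97 to 16.8), stood at 84084801 to 84087200, on 21 and 9 reads. The interval of 337 kb between Irf2bp2, a transcriptional corepressor, and Tomm20, a mitochondrial import receptor, also held 11 islands, with reads of 177 and 266 (pooled fold 1.93, 1.59 to 2.34). Of these, 6 lay nearer to Irf2bp2 and 5 nearer to Tomm20, with a stretch free of them in between. Klf14 and Mkln1 flanked 10 islands with 170 and 199 reads (2.48, 2.01 to 3.06), of which 6 formed a run of 21.4 kb around the start of Lncpint, a long non-coding RNA. All 10 were called in the authors' deposited table, where 88.0% of all distal islands between genes were called.

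**Figure D3:**
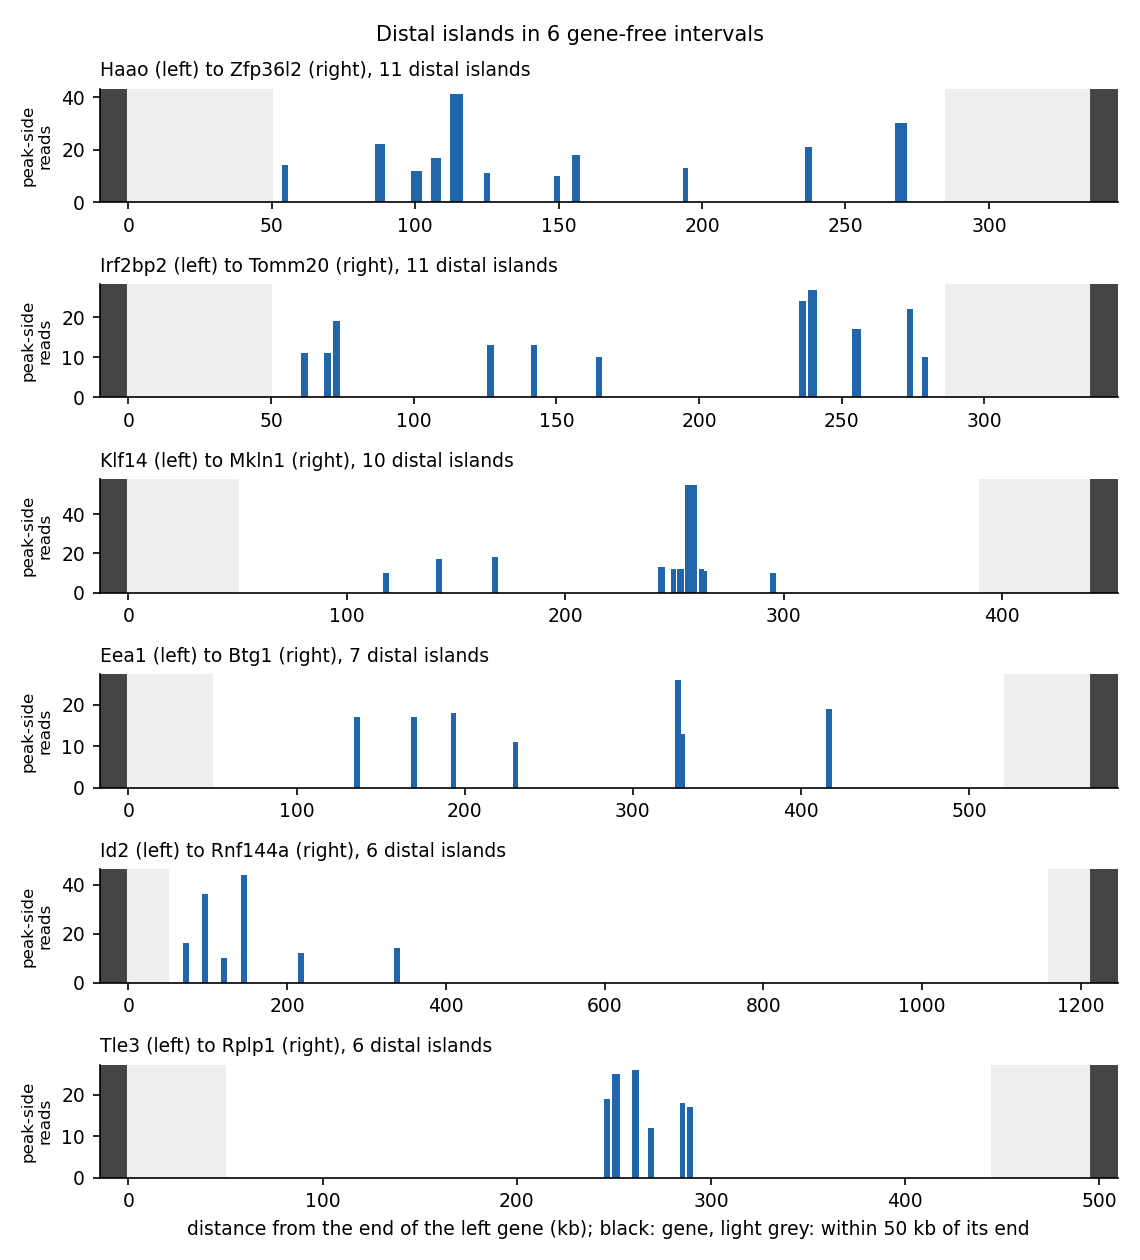
Distal islands in 6 gene-free intervals, drawn by distance from the end of the left gene (kb), with height the peak-side reads and width at least a visible minimum. Black marks the flanking genes and light grey the 50 kb beside them. Islands of the Id2 interval all start within 335 kb of Id2, and those of the Tle3 to Rplp1 interval lie together in its middle.

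Id2, a gene of the LTi and ILC3 list whose product blocks E proteins and is required for all innate lymphoid cells, flanked 6 islands at 68.7, 92.5, 117, 142, 214 and 335 kb from its end, in an interval of 1211 kb that Rnf144a closes on the far side. Their peak-side reads were 16, 36, 10, 44, 12 and 14 and their control-side reads 20, 25, 31, 31, 10 and 3. The folds were 2.32, 4.18, 0.936, 4.12, 3.48 and 13.5, and the pooled fold was 3.19 (2.47 to 4.12). Only the island at 117 kb was not called in the authors' deposited table, where 88.0% of all distal islands between genes were called. The fold of 13.5 rests on 3 control-side reads (3.78 to 73.5). The island at 92.5 kb holds the Gm36496 start printed above.

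Tle3 encodes a corepressor that binds TCF/LEF factors, and it was flanked by distal islands on both sides, 12 in all with reads of 208 and 217 (pooled fold 2.78, 2.29 to 3.38). All 12 were called in the authors' deposited table, where 88.0% of all distal islands between genes were called. On the side of Rplp1, 6 islands lay within 45 kb in the middle of a 495 kb interval (chromosome 9, 61663401 to 61708400). They had 19, 25, 26, 12, 18 and 17 peak-side and 13, 31, 26, 5, 13 and 23 control-side reads. On the side of Uaca, 6 lay along 236 kb with 91 and 106 reads, and 1 of them holds the Gm5122 start. Eea1 and Btg1, an antiproliferative gene of quiescent lymphocytes, flanked 7 islands (pooled fold 2.64, 2.05 to 3.40). Cd83, a surface protein of activated lymphoid cells, and Jarid2, a Polycomb subunit, flanked 6 (1.96, 1.49 to 2.57). Tcp10c and Tcte2 flanked 6 with 593 and 1397 reads (1.23, 1.12 to 1.36), and 1 of these islands held 495 and 1242 of them. That island is among the 10 distal islands with most peak-side reads, where multiply placed reads were not tested.

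Of 27 LTi and ILC3 identity genes, 6 were long enough to be hosts and 4 were, namely Rora, Runx1, Tox and Zbtb16, with 9 islands. These 9 had a median fold of 2.69, against 2.66 for all distal islands inside genes. Of all 27, 10 (37.0%) flanked a distal island, against 3.64% of all protein-coding genes. The share was 36.7% of the listed kinase, adaptor and GTPase regulator genes of lymphocytes. These flanking shares count all genes, whether or not a gene-free interval long enough lay beside them. No enrichment is read from the 3.64%, here or for the lists below. The 10 LTi and ILC3 genes flanked 29 islands with a median fold of 4.12, against 2.57 for all distal islands between genes. Of these islands, 28 were called in the authors' deposited table, where 88.0% of all distal islands between genes were called. The median fold was 3.36 beside listed lymphoid transcription factor genes and 2.45 beside the kinase, adaptor and GTPase regulator genes. An island counts for both of its flanking genes. Ahr, a ligand-activated factor needed for ILC3 maintenance, flanked 4 islands with 10, 15, 11 and 10 peak-side and 4, 8, 8 and 6 control-side reads, and a pooled fold of 5.13 (3.11 to 8.65). Gata3 flanked 3 in the interval it shares with Celf2, 238 to 294 kb from its end (40 and 27 reads, 4.30, 2.57 to 7.28). Maf flanked 4 (54 and 46 reads, 3.40, 2.26 to 5.16) and Runx3 3 (48 and 45 reads, 3.09, 2.02 to 4.75). Kit flanked 2 islands with 21 and 10 reads, 135 and 178 kb from its end, and the endothelial receptor gene Kdr flanks the same interval on the other side. Tnfsf11, which encodes RANKL, flanked 1 with 14 and 9 reads. Inside genes, Tox had 1 island (28 and 21 reads, 3.87, 2.12 to 7.16) and Zbtb16, the gene for PLZF, 1 (15 and 10 reads). The island inside Runx1 (chromosome 16, 92695001 to 92699600) had reads of 26 and 77, a fold of 0.979 (0.602 to 1.55), and was not called in the authors' deposited table. It is the island that holds the CpG-dense Runx1 start printed above.

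None of the 10 TCF-1 and Wnt pathway genes long enough was a host. Their interiors came to only 0.388 Mb, where all gene interiors held 1.62 islands per Mb, so nothing is read from this absence. Against 3.64% of all protein-coding genes and 21.4% of listed B cell genes, 5 of 23 (21.7%) flanked a distal island. Besides Tle3 these were Ctnnb1, which encodes beta-catenin, with 3 islands (51 and 43 reads, 3.44, 2.25 to 5.29), Lef1 with 2 (28 and 41 reads), Myc with 1 (12 and 13 reads) and Axin2 with 1. The island beside Axin2 (chromosome 11, 109010601 to 109012200) had reads of 167 and 618 (fold 0.784, 0.657 to 0.931), the only one of the 19 not called in the authors' deposited table. Of all distal islands between genes, 88.0% were called. The Axin2 island is among the 10 distal islands with most peak-side reads, where multiply placed reads were not tested. With no match on gene length, 11 of the 20 lymphoid transcription factor genes long enough were hosts with 19 islands, or 8.87 per Mb. They include Hivep2 (3 islands), Arid5b (2), Runx2 (2), Ets1, Bach2, Nfatc2 and Smad3. Ets1 also flanked 4 islands (66 and 68 reads, 2.82, 1.98 to 4.01), and Satb1 flanked 1 of 30 and 18 reads, 328 kb from its end. The island inside Hivep1 had 12 reads against 1 and a fold of 34.8 whose interval runs from 5.15 to 1488.

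Cytokine, chemokine and TNF receptor genes are short, and 2 of 39 were long enough. Of all 39, 8 (20.5%) flanked a distal island, against 3.64% of all protein-coding genes and 21.4% of listed B cell genes. Cxcr4, a homing receptor, flanked 4 with 20, 13, 24 and 10 peak-side and 17, 23, 21 and 15 control-side reads (pooled fold 2.56, 1.81 to 3.60), 112 to 240 kb from its end. Tnfaip3, which restrains NF-kB, flanked 3 (38 and 40 reads), and Ifngr1 and Tgfbr2 flanked 2 each. Of 32 long genes of lymphocyte kinases, adaptors and GTPase regulators, 12 were hosts with 26 islands, or 3.33 per Mb. That density was not matched on gene length either. Arhgef3, an exchange factor for small GTPases, held 4 with 82 and 71 reads (3.35, 2.41 to 4.67), and Akap13 held 4 with 57 and 59 (2.80, 1.91 to 4.10).

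Of 87 long neuronal genes 11 were hosts (12.6%, against 15.9% of all genes long enough), with 0.150 islands per Mb. Genes over 1000 kb held 0.168 per Mb. They include Lrp1b and other genes of this list, so these densities are not independent. The 12 islands inside neuronal genes had a median fold of 5.66, against 2.66 for all distal islands inside genes. The high fold was not found beside these genes. Of the list, 15 genes (17.2%) flanked 27 islands with a median fold of 2.57, against 2.57 for all distal islands between genes. Dscam (22 and 9 reads, 7.09, 3.14 to 17.5), Slit3 (19 and 10), Rbfox1 (14 and 7) and Robo2 (13 and 4, and a second of 9 and 0) had peak-side counts above their control-side counts even before scaling. Il1rapl1 had 8 and 36, and was the only one of the 12 not called in the authors' deposited table, where 89.2% of all distal islands inside genes were called. The counts are small, and all 12 islands together rest on 8 to 22 peak-side reads each. Among lists of other cell types, 1 of 15 natural killer genes (Ifng), 1 of 11 group 2 innate lymphoid genes (Arg1), 1 of 13 T cell genes (Thy1), 3 of 14 B cell genes (Bank1, Cr2, Ebf1), 1 of 15 myeloid genes (Cebpb, with 5 islands) and 3 of 18 epithelial or stromal genes (Col1a2, Epcam, Kdr) flanked a distal island. These shares, from 6.67% to 21.4%, also lay above the 3.64% of all genes. The island beside Cr2 is among the 10 distal islands with most peak-side reads, where multiply placed reads were not tested. Only 3 B cell genes and 1 myeloid gene of these lists were long enough to be hosts, and none was.

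Some islands far from coding gene ends lay at annotated starts. A RefSeq start window of 300 bases overlapped 128 distal islands (10.1%), against 48.4% of all islands. Of the 128, 53 held a coding start, in each case an internal start of the host gene itself (51 genes), and 78 held a start of a long non-coding RNA, as did 1289 of all 16581 islands. Another 552 lay over 50 kb from any start in the RefSeq table. Long non-coding RNA genes covered 222 of the 684 islands between genes (32.5%). Islands with a start had a median fold of 2.16, and those without 2.66. The start of Celf2 at 6720801 to 6730000 on chromosome 2 lay in the widest distal island inside a gene, 9.2 kb with 43 and 35 reads, and that of Lncpint in an island of 55 and 76 reads.

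The starts in distal islands held fewer CpG dinucleotides than those at gene ends. The median was 17 CpG in 300 bases for 59 coding starts in distal islands and 23 for 8759 in gene-end islands. For long non-coding RNAs it was 8 in 98 starts in distal islands and 26 in 932 at gene ends, while starts in no island had 4 and 3. The printed sequences span this range, with 44 CpG at Foxp1, 35 at Runx1, 13 at Jmjd1c, 8 at Morrbid, 6 at Gm5122 and 2 at Gm36496. Morrbid is a non-coding RNA beside the death gene Bcl2l11, and its island had 19 and 22 reads.

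**Figure D4:**
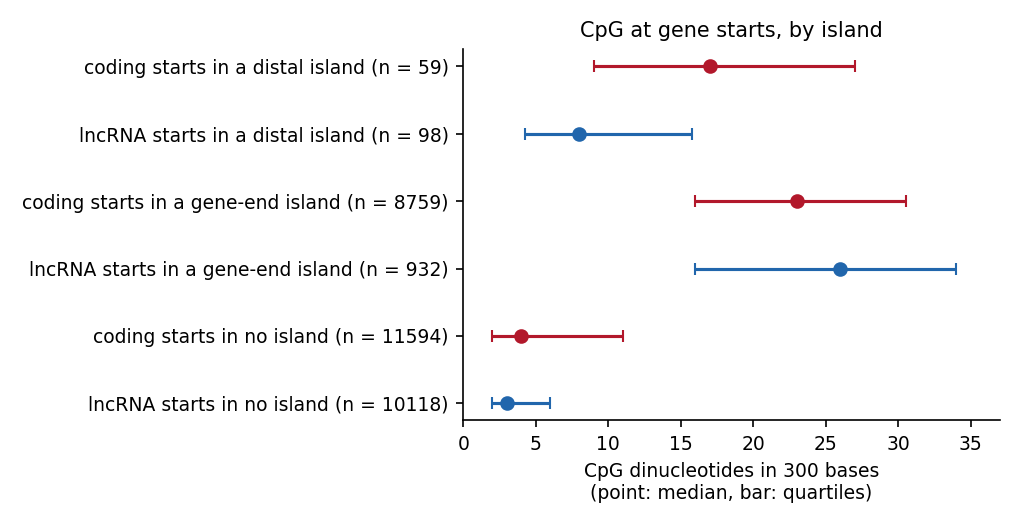
CpG dinucleotides in the 300 bases around RefSeq starts, median (points) and quartiles (bars), for coding (red) and long non-coding (blue) starts in distal islands, in gene-end islands and in no island. The starts in distal islands lie between the others, with medians of 17 and 8.

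Motif letters were counted in the same windows on both strands. TGANTCA (AP-1) was present in 19 of 98 non-coding starts in distal islands (19.4%), in 9.83% of non-coding starts in no island and in 7.81% of all 32851 windows. Some of the 98 windows share an island, and the 19 lie in 17 islands. For coding starts in distal islands the AP-1 share was 6.78%, against 9.72% of coding starts in no island. CTTTGA (TCF/LEF) was in 18.4% of the non-coding starts in distal islands, 19.7% of those in no island and 16.0% of all windows, and in 6.78% of the coding starts in distal islands. In the same order for non-coding starts, TGTGGT (RUNX) was in 23.5%, 21.0% and 16.8%, GGAAGT (ETS) in 22.4%, 21.6% and 23.8%, and AGGTCA (bound by ROR factors) in 16.3%, 19.9% and 16.3%. A single AP-1 or TCF/LEF match can overlap other motifs, and a match describes letters, not binding. Of the printed starts, Gm5122 holds both the RUNX and the AP-1 letters and Morrbid both AP-1 and ETS.

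A few islands held most of the distal reads. The 10 with most peak-side reads held 70.0% of them, and 9 of these lay between genes. No list of repeats or of regions with multiply placed reads was used, so whether these counts include reads of other copies of the same sequence was not tested. The first was at 98666201 to 98667400 on chromosome 2, between Lrrc4c and Iftap and 1035 kb from the nearer gene, with 18039 and 20320 reads in 1.2 kb. A neighbour at 98662201 to 98665400 had 4579 and 6217. The widest (chromosome 9, 3000001 to 3038600) lay before the first gene of its chromosome, with 11153 and 16720 reads. On chromosome 14, 19415601 to 19419800 held 6125 and 8849. The island at 39843001 to 39849800 on chromosome 17, over the ribosomal RNA pseudogene Rn18s-rs5, had reads of 3037 and 11347 (fold 0.776, 0.746 to 0.808). Inside genes only Chl1 came near these counts, with 713 and 893 reads in an island of 0.4 kb. The pooled fold of all distal islands was 2.04, with 2.37 inside genes and 1.99 between them, and 2.29 without those 10 islands.

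Among called islands with at least 18 peak-side reads, the highest fold was 10.4 (3.74 to 36.0), between Exoc2 and Foxq1 on 18 and 5 reads. An island between Gm5148 and Ankrd50 had 23 and 7 (9.53, 3.96 to 26.3), 1 inside Arhgef3 had 19 and 7 (7.87), and 1 each inside Eml1 and Dscam had 22 and 9 (7.09). No control-side read was found in 3 distal islands. Inside Sh3kbp1 there were 13 peak-side reads, and the exact interval of the fold starts at 8.84. For Robo2 (9 reads) and the interval from Ndst3 to Tram1l1 (8 reads) it starts at 5.73 and 4.95. The lowest folds at that depth were 0.669 (0.395 to 1.08) between Mc2r and Tcf4 on 21 and 91 reads, and 0.746 (0.418 to 1.27) on chromosome Y. The 5 farthest islands include the Lrrc4c pair, 1 between Cntnap5b and Cdh20 (25 and 68 reads, 2138 kb from both), 1 between Tenm2 and Mat2b (10 and 6) and 1 between Nmbr and Cited2, a transcriptional coregulator (11 and 9).

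Distal islands were mostly solitary. With islands joined at gaps up to 12.5 kb, 975 stood alone and 291 formed 120 runs, of which 14 had 4 or more. The runs with most islands were those of Ppm1h (7 islands) and Lncpint (6), followed by 5 each in the Haao to Zfp36l2 interval, in 2900026A02Rik and between Cstad and 1700001O22Rik. The share of islands that were distal ranged over the autosomes from 3.98% on chromosome 11 to 13.7% on chromosome 13. On chromosome Y it was 6 of 10, and those 6 had a median fold of 1.04.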

How the data were processed

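DNase-seq was run on 4 libraries, 2 Ctrl and 2 Tcf7-KO, and 1 peak table of the whole series was analysed. Bowtie2 2.4.2, SICER 2.0 and build mm10 are named in the submitters' processing notes. Per the file headers, the authors deposited each island's position with a raw read count for either side, the ratio of the sides as a fold, its p-value and an FDR (q-value). The totals were 425134 and 645087 reads. The deposited p-values were recomputed within 4.98e-08 as a Poisson tail and the FDR within 0.000279, and the fold as a ratio with the factor 0.345 and 0.25 reads in place of 0. No header or label ties a count column to a library, so the planned comparison of genotypes, its replicate spread and library depths were not analysed here, and 0 columns of other samples were left unused.

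Distances were taken from island edges to the ends of 21887 RefSeq protein-coding genes (GRCm38.p6), and 3 mitochondrial islands were left out. Positions are 1-based mm10. Start windows (32851) came from the same RefSeq release, and no genome sequence was used. Densities divide islands by the DNA over 50 kb from every gene end. Distances and fold intervals were tested on simulated data. Python 3.11.15, pandas 2.3.3, numpy 2.4.6, scipy 1.17.1 and matplotlib 3.10.9 were used. The distal islands and the 12 gene lists were chosen with earlier results of these data known. The named islands are those of the 12 hosts and 8 intervals with most islands, the 10 with most peak-side reads inside and between genes, the 5 farthest, the 8 largest and 8 smallest folds with at least the median of 18 peak-side reads, the 3 on each side of 50 kb, and islands of listed genes. The Uaca interval, runs, islands without control-side reads and printed starts were chosen after their values were seen. Alternatives varied the distance limit, gene set, read minimum, FDR threshold and scaling. Some genes and their values are not reported here.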

Additional observations from a re-analysis of the deposited data

Results flagged for a closer look

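The 3 mitochondrial islands, which belong to no group of the report because mitochondrial DNA was left out, held 7735 peak-side and 13262 control-side reads, or 1.82% of all peak-side reads of the table. Their pooled fold was 1.69. They stand out as signal in data that no comparison above used. Their source was not tested.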

How the results depend on the processing

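Of 38 alternatives, 17 left a value within its counting or order-statistic interval or a count within 1.5 times, 20 moved it and 1 reversed it. The number of distal islands was 2429 beyond 25 kb, 510 beyond 100 kb, 360 when the ends of all genes counted, non-coding ones included, and 237 with at least 20 peak-side reads. The share inside a gene was 50.4% beyond 25 kb, 37.1% beyond 100 kb, 64.5% when a gene of any kind could be the host and 41.8% with at least 20 reads. The share called was 74.2% at an FDR under 0.01 and 72.4% with a fold over 2 as well. With the control side scaled by the reads in all islands it was 23.1%, against 9.19% of all islands and 3.96% of gene-end islands. The median fold was 1.37 under that scaling, 1.30 when scaled by the median ratio, 2.77 beyond 100 kb and 2.15 with at least 20 reads. The difference in median log2 fold, distal minus gene end, was 0.20 with at least 20 reads and -0.092 with at least 30, with 61 distal and 3036 gene-end islands, and the cause was not tested. With at least 20 reads the median width was 2600 bp. Reads per kb had a median of 7.80. In an alternative chosen after seeing the data, leaving out the 10 islands of most reads gave a pooled fold of 2.29 over all distal islands and 2.23 between genes. At a median of 13 peak-side reads the interval of a single island's fold spans several-fold. No paired analysis was possible because neither count column names a library or replicate, and for the same reason the replicate block, the fits without each replicate and the comparison of Tcf7-KO with control were not run.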
